A study of Mus musculus with 6 samples.

Results

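Markers of the resident macrophages of the liver and of antigen-presenting cells were followed in whole-liver RNA-seq of mice given an siRNA against Rnf10. The 10 genes were Adgre1, Clec4f, Vsig4, Timd4, Cd5l, Marco, Csf1r, Cd68, Cd163 and Cd74, taken by symbol from a given list, out of 55487 genes in the count table. All 10 passed the filter on low counts and were among the 14046 genes tested. The groups were 3 GalNAc-siNC mice and 3 GalNAc-siRnf10 mice, with 1 liver library per mouse. All 6 were male wild-type C57BL/6J mice on normal chow, received the conjugate under the skin, and were 17 weeks old when the liver was taken. The labels put all 6 libraries in one batch. GalNAc is a sugar ligand that binds the asialoglycoprotein receptor of hepatocytes, so it steers an siRNA to these cells, and GalNAc-siNC is the same ligand joined to a non-targeting siRNA. RNF10 is a RING-type ubiquitin ligase. The study used this comparison to look for unintended effects of the conjugate on other transcripts, and the question here is whether the macrophage markers differed between the groups.

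Kupffer cells are the macrophages that line the liver sinusoids. They settle there in the embryo, renew themselves locally, and clear bacteria, worn-out red blood cells, haemoglobin complexes and modified lipoproteins from portal blood. Their survival depends on the CSF1 receptor, their lineage on the transcription factor PU.1, and their identity on LXR-alpha (Nr1h3) and the Id proteins. Clec4f, Vsig4, Timd4, Cd5l and Marco are used as markers of resident Kupffer cells, whereas Adgre1 (F4/80), Csf1r, Cd68 and Cd163 mark macrophages more widely and Cd74 marks cells that present antigen on MHC class II.

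The knockdown was present in every treated mouse. Rnf10 had 3869, 4536 and 4040.2 normalized counts in the GalNAc-siNC livers and 1738, 1820.5 and 1793 in the GalNAc-siRnf10 livers. A normalized count is the count of the gene scaled to the effective size of its library. The group means were 4148 ± 347 and 1784 ± 41.8 (SD, n = 3), with a log2 fold change of -1.22 (SE 0.0715; edgeR quasi-likelihood F-test, Benjamini-Hochberg adjusted p = 3.29e-09). Libraries held between 26854377 and 33058645 counts, at which 3 counts, the most that a count of 0 allows, are at most 1.12e-05% of a library, for counting error only. The counts of the 10 markers lay between 86 and 2141 per mouse, far above that floor. GalNAc-siNC mouse 1 stood apart from the others: its chi-square per gene against the remaining GalNAc-siNC mice was 31.3 and 30.5, beside 10.5 between those and 4.74 to 5.44 among the GalNAc-siRnf10 mice. Marker results that change without it are given with and without it, and so are the counts of the other gene lists.

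Of the 10 markers, 1 rose and none fell in GalNAc-siRnf10 livers by edgeR. Cd163, the scavenger receptor for haemoglobin-haptoglobin complexes, was 29.2% higher. Among all tested genes 14.0% were called at an adjusted p under 0.05, with 6.71% higher and 7.28% lower, so 1 of 10 is near the background share. At an unadjusted p under 0.05 there were 1 higher marker (Cd163) and 2 lower ones (Cd5l and Cd68), and DESeq2 and limma voom each called 1 higher and 0 lower. The median log2 fold change of the 10 markers was 0.085, beside 0.0022 for all tested genes, and the median of their absolute log2 fold changes was 0.15, beside 0.18. In a whole liver, fewer cells of a type and less RNA per cell cannot be told apart, so a change in such a marker is a change in its share of liver RNA.

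**Figure D1:**
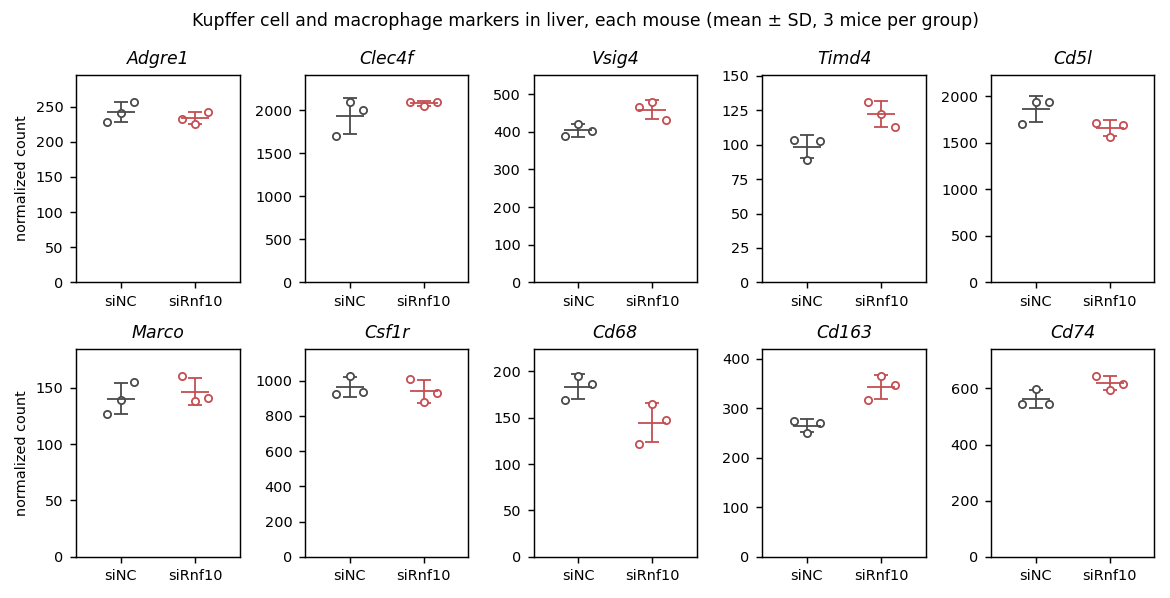
Normalized count (y axis, from 0) of each of the 10 markers in the 3 GalNAc-siNC (grey) and 3 GalNAc-siRnf10 (red) livers. Circles are mice and bars the mean ± SD of 3 mice. The groups are apart for Cd163, Timd4 and Vsig4, with higher values in GalNAc-siRnf10 livers, and for Cd68, with lower ones.

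The groups did not overlap for 4 of the 10 markers, 3 higher and 1 lower, against 32.8% of all tested genes. The proximal promoters of these 4 (Cd163, Timd4, Vsig4 and Cd68) are shown to look in them for the core motif of PU.1, the factor of the macrophage lineage. Each is the 250 bases upstream of the RefSeq transcription start (GRCm38.p6), 5′ to 3′ on the strand of the gene. Capitals mark the PU.1 core GAGGAA, which was searched on both strands. The motifs searched were picked after the values had been seen.
Cd163, chr6:124304401-124304650 (+): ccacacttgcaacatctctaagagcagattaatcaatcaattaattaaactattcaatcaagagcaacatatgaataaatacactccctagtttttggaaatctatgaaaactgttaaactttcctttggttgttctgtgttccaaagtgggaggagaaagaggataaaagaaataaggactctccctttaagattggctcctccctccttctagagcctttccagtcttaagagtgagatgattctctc
Timd4, chr11:46810549-46810798 (+): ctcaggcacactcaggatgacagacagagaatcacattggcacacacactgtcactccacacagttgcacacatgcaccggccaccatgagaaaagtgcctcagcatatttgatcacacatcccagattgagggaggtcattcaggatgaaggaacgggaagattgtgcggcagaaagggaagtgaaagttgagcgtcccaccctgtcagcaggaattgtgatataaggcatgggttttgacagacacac
Vsig4, chrX:96293439-96293688 (-): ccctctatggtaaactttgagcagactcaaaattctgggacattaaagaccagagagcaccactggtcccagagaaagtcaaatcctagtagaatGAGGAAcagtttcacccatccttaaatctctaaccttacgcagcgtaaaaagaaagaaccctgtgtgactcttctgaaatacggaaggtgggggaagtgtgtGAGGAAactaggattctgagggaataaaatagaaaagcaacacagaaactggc
Cd68, chr11:69666171-69666420 (-): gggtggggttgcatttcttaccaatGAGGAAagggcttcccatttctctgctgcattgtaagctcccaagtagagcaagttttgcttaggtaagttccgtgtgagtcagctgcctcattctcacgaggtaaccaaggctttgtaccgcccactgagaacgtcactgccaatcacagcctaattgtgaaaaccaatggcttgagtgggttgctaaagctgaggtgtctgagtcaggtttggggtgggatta
The Cd163 and Timd4 sequences did not hold the core. Vsig4 held it at bases -155 to -150 and -53 to -48, and Cd68 at -225 to -220.

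Promoters of the same length were searched for 7 markers (Marco, Cd5l, Clec4f, Cd163, Timd4, Cd68 and Vsig4). Adgre1, Csf1r and Cd74 were not searched, so the counts of motifs cover these 7 only. GAGGAA occurred in 4 of them (Marco, Cd5l, Cd68 and Vsig4) and in 23.3% of 32851 promoters. Neither the TATA box TATAAA nor the glucocorticoid receptor palindrome, GNACA and TGTNC with any 3 bases between, was found on either strand in the 7 markers, and 12.4% and 0.387% of all promoters held them. These matches describe letters in a window and not binding sites.

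Cd163 was the one marker called. It had 275, 251 and 269.7 normalized counts in GalNAc-siNC mice 1, 2 and 3, and 316, 365 and 346 in GalNAc-siRnf10 mice 1, 2 and 3. Every GalNAc-siRnf10 value lay above every GalNAc-siNC value. The mean rose from 265 ± 12.9 to 343 ± 24.6 (SD, n = 3 per group), a log2 fold change of 0.37 (95% confidence interval 0.13 to 0.61; edgeR quasi-likelihood F-test with Benjamini-Hochberg adjustment, adjusted p = 0.0380), which is 1.29-fold with an interval of 1.09 to 1.53. The exact two-sided permutation test gave p = 0.1, the smallest value that 3 mice against 3 allow. The edgeR call with Benjamini-Hochberg adjustment was lost with the replicate number as a block (adjusted p = 0.0608) and without any 1 of GalNAc-siNC mouse 2 (0.102), GalNAc-siNC mouse 3 (0.0715), GalNAc-siRnf10 mouse 1 (0.0668), GalNAc-siRnf10 mouse 2 (0.180) or GalNAc-siRnf10 mouse 3 (0.130). Over all 15 alternatives the log2 fold change lay between 0.32 and 0.42 and the adjusted p between 0.0107 and 0.180.

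Timd4 and Vsig4 are receptors of resident Kupffer cells that take up particles: TIM-4 binds phosphatidylserine on dying cells, and VSIG4 (CRIg) binds complement-coated bacteria. Timd4 had 104, 88.7 and 103 normalized counts in GalNAc-siNC mice 1, 2 and 3, and 131, 122 and 113 in GalNAc-siRnf10 mice. Vsig4 had 388, 422 and 401, and 466, 480.0 and 431. For both genes the lowest GalNAc-siRnf10 mouse lay above the highest GalNAc-siNC mouse. Neither passed the test across all genes. The log2 fold change was 0.31 for Timd4 (interval -0.04 to 0.66; edgeR, Benjamini-Hochberg adjusted p = 0.250) and 0.19 for Vsig4 (-0.03 to 0.40; adjusted p = 0.251), and the exact permutation p was 0.1 for each. When the counts were corrected for GC content and gene length, the log2 difference of Vsig4 was 0.010 and that of Timd4 0.20.

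Clec4f, a C-type lectin restricted to Kupffer cells in the mouse, and Marco, a scavenger receptor for bacteria and particles, had groups that overlapped. Clec4f had 1698, 2093 and 1999 normalized counts in GalNAc-siNC mice, and 2094, 2047 and 2097 in GalNAc-siRnf10 mice. Its lowest value was that of GalNAc-siNC mouse 1, and the other 5 mice lay within a narrow range. The log2 fold change was 0.11 (interval -0.06 to 0.27; edgeR, Benjamini-Hochberg adjusted p = 0.412), and 0.022 without GalNAc-siNC mouse 1. Marco had 127, 139 and 155 normalized counts in GalNAc-siNC mice, and 161, 139 and 141 in GalNAc-siRnf10 mice. Its log2 fold change of 0.06 (interval -0.26 to 0.38; adjusted p = 0.841) turned negative without GalNAc-siNC mouse 1 or without GalNAc-siRnf10 mouse 1, where it was -0.010 and -0.0071.

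Cd5l and Cd68 had lower means in GalNAc-siRnf10 livers. CD5L (AIM) is a protein that Kupffer cells and other macrophages secrete into blood, under control of LXR, and CD68 is a glycoprotein of macrophage lysosomes. Cd5l had 1699, 1941 and 1936 normalized counts in GalNAc-siNC mice, and 1714, 1562 and 1694 in GalNAc-siRnf10 mice. GalNAc-siNC mouse 1 lay at the level of the GalNAc-siRnf10 mice and the other GalNAc-siNC mice above it. Cd68 had 169, 195 and 187 in GalNAc-siNC mice, and 122, 164 and 147 in GalNAc-siRnf10 mice, with no overlap. The log2 fold change was -0.17 for Cd5l (interval -0.33 to -0.01; edgeR, Benjamini-Hochberg adjusted p = 0.169; exact permutation p = 0.2) and -0.34 for Cd68 (interval -0.66 to -0.02; adjusted p = 0.157; exact permutation p = 0.1). Correction for GC content and gene length put both past the threshold, at -0.24 for Cd5l (edgeR, Benjamini-Hochberg adjusted p = 0.00752) and -0.46 for Cd68 (adjusted p = 0.0290). Without GalNAc-siNC mouse 1, Cd5l was also called lower, at -0.23 (edgeR, Benjamini-Hochberg adjusted p = 0.00775).

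Adgre1 and Csf1r, which many macrophages share, had the smallest log2 fold changes of the 10 markers. Adgre1 encodes F4/80, an adhesion-type receptor used in tissue stains for macrophages. It had 228, 240.3 and 257 normalized counts in GalNAc-siNC mice, and 232, 226 and 243 in GalNAc-siRnf10 mice. The groups overlapped, and the log2 fold change was -0.05 (interval -0.30 to 0.20; edgeR, Benjamini-Hochberg adjusted p = 0.833). Csf1r, the receptor for CSF1 and IL-34, had 926, 1026 and 936 in GalNAc-siNC mice, and 1009, 879 and 929.7 in GalNAc-siRnf10 mice. Its groups overlapped too, and its log2 fold change of -0.04 (interval -0.21 to 0.14; adjusted p = 0.828) was 0.080 after correction for GC content and gene length. Csf1r is uncertain because 873 bases of its exons overlap Hmgxb3 on the opposite strand, which had up to 439 counts in a mouse, and the strand setting of the counting is not given in the sources used here.

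Cd74, the invariant chain that guides MHC class II molecules to the compartment where peptides are loaded, had 543, 598 and 545 normalized counts in GalNAc-siNC mice, and 644, 596 and 614 in GalNAc-siRnf10 mice. GalNAc-siNC mouse 2 lay just above the lowest GalNAc-siRnf10 mouse. The log2 fold change was 0.14 (interval -0.06 to 0.33; edgeR, Benjamini-Hochberg adjusted p = 0.369), and the exact permutation p was 0.2. The intervals of the 9 markers that were not called reach from -0.66 to 0.66 at their ends, so a p that missed the threshold does not show equal levels.

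**Figure D2:**
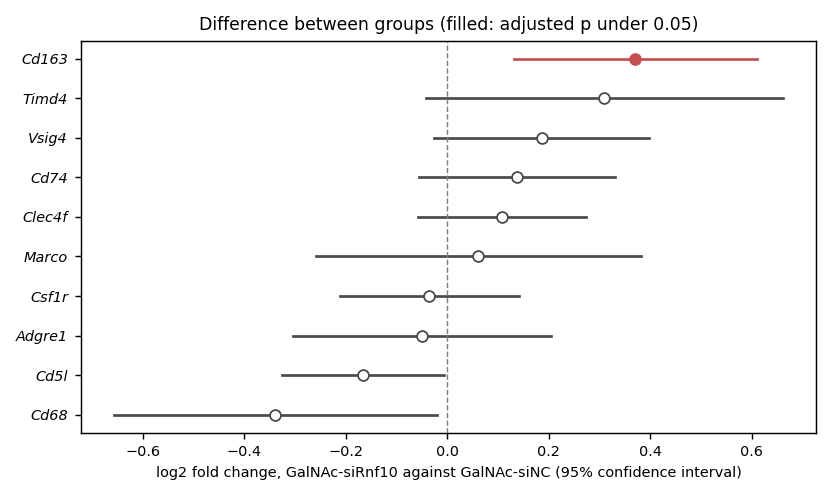
Log2 fold change of GalNAc-siRnf10 against GalNAc-siNC (x axis) for the 10 markers, with 95% confidence intervals from the edgeR fit of 3 mice against 3. The filled point marks the one marker with an adjusted p under 0.05, Cd163 at 0.37. The intervals of Cd68 and Cd5l lie just below 0 and those of the other 7 include 0.

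The levels of the 10 markers spanned more than an order of magnitude. As CPM (the count scaled to a fixed library size) per kilobase of gene model, averaged over the 6 mice, Cd5l was highest at 29.1, followed by Clec4f at 27.3, Cd74 at 11.8 and Vsig4 at 9.80. Csf1r had 5.55, Cd68 4.40, Marco 2.51, Adgre1 2.47, Cd163 1.88 and Timd4 1.71. These levels put Cd5l above 91.1% of the tested genes and Timd4 above 41.7%. Neighbours in this order overlapped in 4 places. Cd5l was above Clec4f in 3 of the 6 mice and Marco above Adgre1 in 3, so neither pair was ordered. Csf1r was above Cd68 in 6 of 6 mice although their ranges touched, and Cd163 above Timd4 in 5. The remaining neighbours did not overlap in any of the 6 mice.

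**Figure D3:**
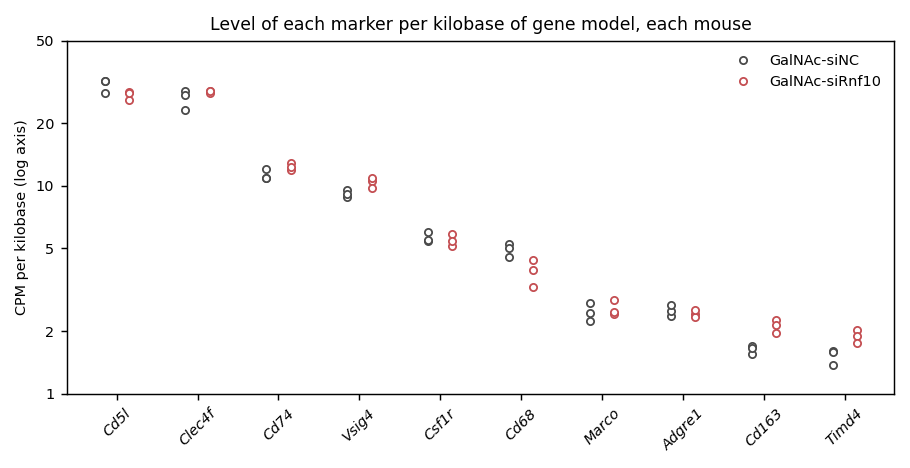
Level of each marker in CPM per kilobase of gene model (y axis, log scale) in each of the 3 GalNAc-siNC (grey) and 3 GalNAc-siRnf10 (red) livers, ordered by the mean over 6 mice. Cd5l (mean 29.1) and Clec4f (27.3) lie at the top and Cd163 (1.88) and Timd4 (1.71) at the bottom.

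The markers did not move as 1 block. Summed over the 10 genes, their level was 208 to 236 CPM in GalNAc-siNC livers and 222 to 232 CPM in GalNAc-siRnf10 livers, so the ranges overlapped. GalNAc-siNC mouse 1 lay below its group mean for 8 of the 10 markers. Taken against the mean log2 CPM of the other 9 markers, Cd163 was 0.34 higher in GalNAc-siRnf10 than in GalNAc-siNC livers, and Timd4 0.28 higher. On the same scale Cd68 differed by -0.45 and Cd5l by -0.25. The remaining 6 markers differed by -0.12 (Adgre1) to 0.14 (Vsig4). These are descriptions with no test. Across the 45 pairs of markers, the correlation of their deviations from the group means over the 6 mice ranged from -0.99 to 0.96 with a median of 0.13, and 26 pairs lay above 0. The points of these correlations share their libraries.

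Genes whose profile over the 6 mice was most like the mean profile of the 10 markers were looked for among 10935 genes whose normalized counts averaged 50 or more. Of these, 767 had a Pearson r of at least 0.9. The nearest 5 were Vamp8, Timm50, Rpl21-ps15, Tomm7 and Smdt1, with r between 0.997 and 0.999 over 6 mice. Their own log2 fold changes were 0.29 to 0.45, and none was called (edgeR, Benjamini-Hochberg adjusted p from 0.114 to 0.416). The mean profile of the markers was lowest in GalNAc-siNC mouse 1, at -0.096 on the centred log2 scale, and lay between -0.00014 and 0.042 in the other 5, so the low value of that library makes up most of the profile. Rpl21-ps15 is a ribosomal protein pseudogene, and reads of near-identical copies cannot be assigned to it with certainty.

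Of the 9 transcription factors of macrophage and Kupffer cell identity reported here, 1 was called by edgeR, and it was lower. Among all tested genes 6.71% were called higher and 7.28% lower, the shares to set beside the counts of each list below. The median log2 fold change of the 9 factors was 0.0046, with 5 above 0 and 4 below. Nr1h3 was at -0.03 (edgeR, Benjamini-Hochberg adjusted p = 0.886). Spi1 was also called lower under 3 of the 15 alternatives. Id3, an inhibitor of helix-loop-helix factors that Kupffer cells need, had 911, 1290.3 and 1345 normalized counts in GalNAc-siNC mice, and 615, 592 and 549.5 in GalNAc-siRnf10 mice. The groups were apart, and GalNAc-siNC mouse 1 was the lowest of its group. The log2 fold change was -1.01 (SE 0.133; edgeR, Benjamini-Hochberg adjusted p = 0.000360), and Id3 was called in all 15 alternatives. It is not restricted to macrophages, and which liver cells carried the change was not tested. Spi1, which encodes PU.1, had 88.8, 137 and 123 normalized counts in GalNAc-siNC mice, and 92.7, 84.1 and 49.0 in GalNAc-siRnf10 mice. The groups overlapped, and the log2 fold change was -0.62 (interval -1.12 to -0.12; edgeR, Benjamini-Hochberg adjusted p = 0.0926). It was called lower, for 2 called genes in the list, with no filter on low counts, with limma voom and without GalNAc-siNC mouse 1.

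Ligands and signalling proteins of the CSF1 receptor gave 0 higher and 2 lower of 10 genes, beside 7.28% lower among all tested genes. The median log2 fold change of the 10 was -0.14, with 4 above 0 and 6 below. Csf1, which encodes a ligand of the receptor, had 411, 464 and 456 normalized counts in GalNAc-siNC mice, and 331, 302 and 350.4 in GalNAc-siRnf10 mice. Every GalNAc-siRnf10 mouse lay below every GalNAc-siNC mouse, with a log2 fold change of -0.44 (edgeR, Benjamini-Hochberg adjusted p = 0.0116), a call that was lost without GalNAc-siRnf10 mouse 1 or mouse 2. Laptm5, a lysosomal protein of blood cells, went from 342 ± 4.49 to 239 ± 19.1 normalized counts (SD, n = 3 per group), a log2 fold change of -0.52 (edgeR, Benjamini-Hochberg adjusted p = 0.00505). Without GalNAc-siNC mouse 1 the phosphatase Ptpn6 (-0.18 with all mice) was called lower as well. Il34, the other ligand of the receptor, averaged 12.9 and 18.7 normalized counts in GalNAc-siNC and GalNAc-siRnf10 livers. Its log2 fold change was 0.53 (edgeR, Benjamini-Hochberg adjusted p = 0.566). The 10 genes together had 90.4 to 101 CPM in GalNAc-siNC and 80.2 to 84.2 CPM in GalNAc-siRnf10 livers.

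Of 10 further genes enriched in Kupffer cells, 1 was called by edgeR and it was lower, near the 7.28% among all tested genes. Il18bp was also called lower under 5 of the 15 alternatives. Sdc3, a heparan sulfate proteoglycan, had 979, 1047 and 959 normalized counts in GalNAc-siNC mice, and 847, 838 and 716 in GalNAc-siRnf10 mice. The groups were apart, and the log2 fold change was -0.31 (edgeR, Benjamini-Hochberg adjusted p = 0.0216), which was no longer called under 6 of the 15 alternatives, among them both corrections for GC content and gene length. The median of the 10 was -0.067, and 9 of the 10 lay below 0. Their sum was 90.7 to 96.2 CPM in GalNAc-siNC and 77.8 to 85.5 CPM in GalNAc-siRnf10 livers. Most of the fall in the sum was in Sdc3 (means 995 and 800 normalized counts) and Il18bp (440 and 339). Il18bp was at -0.38 on the log2 scale (edgeR, Benjamini-Hochberg adjusted p = 0.0684). Fcna went the other way, with means of 310 and 347.

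Among 12 genes of phagocytes in general, 1 was called, and it was lower, which is near the 7.28% called lower among all tested genes. Mpeg1, which encodes the pore-forming protein perforin-2, had 3602, 3444 and 3612 normalized counts in GalNAc-siNC mice, and 2240.3, 2234 and 2183 in GalNAc-siRnf10 mice. The mean fell from 3553 ± 94.5 to 2219 ± 31.4 (SD, n = 3 per group), a log2 fold change of -0.68 (SE 0.0625; edgeR, Benjamini-Hochberg adjusted p = 7.68e-07), and the call held in all 15 alternatives. Per kilobase it went from 27.6 to 17.3 CPM, so it stood at the level of Clec4f and Cd5l in GalNAc-siNC livers. The median of the 12 genes was -0.0056, and 6 lay above 0 and 6 below.

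The C1q chains, which Kupffer cells make in quantity, were not called in either direction, with 0 of 3 at an unadjusted p under 0.05 in edgeR and 0 called by DESeq2. C1qa had 559.7, 923 and 859.6 normalized counts in GalNAc-siNC mice, and 926, 793 and 836 in GalNAc-siRnf10 mice. The low value was again GalNAc-siNC mouse 1. The log2 fold changes were 0.13 for C1qa, 0.02 for C1qb and -0.06 for C1qc (edgeR, Benjamini-Hochberg adjusted p = 0.720, 0.947 and 0.830).

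Phagocytic receptors and their bridging ligands had 7 of 8 genes tested, and Gas6, the ligand that bridges phosphatidylserine to the TAM receptors Axl and Mertk, was the 1 called. It had 1396, 1571 and 1415 normalized counts in GalNAc-siNC mice, and 804, 858 and 785 in GalNAc-siRnf10 mice. Its log2 fold change was -0.84 (edgeR, Benjamini-Hochberg adjusted p = 1.01e-06), and it was called in all 15 alternatives. The median of the 7 genes was -0.020. The mannose receptor Mrc1 (0.22 with all mice) was called higher without GalNAc-siNC mouse 1. Pros1 was lower in every GalNAc-siRnf10 mouse, at -0.16 (edgeR, Benjamini-Hochberg adjusted p = 0.149). It was called lower under both corrections for GC content and gene length.

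MHC class II presentation, in which Cd74 takes part, had 13 of 15 genes tested and none called by edgeR, DESeq2 or limma voom. At an unadjusted p under 0.05, edgeR gave 1 lower gene, Ciita, and 0 higher. Ciita had few counts, 25.2 ± 5.51 normalized counts in GalNAc-siNC and 12.8 ± 7.83 in GalNAc-siRnf10 livers (SD, n = 3 per group). Its log2 fold change was -0.95 (edgeR, Benjamini-Hochberg adjusted p = 0.185). The median log2 fold change of the 13 was 0.089, with 8 above 0 and 5 below. The most abundant members were Rfxap, a subunit of the factor that binds class II promoters, with 319 ± 68.6 normalized counts in GalNAc-siNC and 322 ± 57.4 in GalNAc-siRnf10 livers, and Ifi30, a lysosomal thiol reductase, with 299.9 ± 47.8 and 359 ± 34.0 (SD, n = 3 per group). The log2 fold change was 0.02 for Rfxap (edgeR, Benjamini-Hochberg adjusted p = 0.968) and 0.26 for Ifi30 (adjusted p = 0.211).

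Markers of monocytes and recruited macrophages had 8 of 12 genes tested, and 1 was called. Spp1, which encodes osteopontin, had 1858, 1783 and 1866 normalized counts in GalNAc-siNC mice, and 992, 983 and 971 in GalNAc-siRnf10 mice. Its log2 fold change was -0.90 (SE 0.0701; edgeR, Benjamini-Hochberg adjusted p = 8.59e-08), and it was called in all 15 alternatives. Spp1 is also made by bile duct cells and hepatocytes. Without it the list had no called gene, and its 4 untested genes had at most 12 counts in a mouse. The defining monocyte genes had few counts. Ly6c2 averaged 9.90 and 9.52 normalized counts in GalNAc-siNC and GalNAc-siRnf10 livers, Ccr2 32.6 and 18.9, and Cx3cr1 17.3 and 8.64. Their log2 fold changes were -0.01, -0.80 and -0.98, of which Ccr2 was at an unadjusted p under 0.05 and none was called (edgeR, Benjamini-Hochberg adjusted p = 0.995, 0.176 and 0.323). Over the 8 tested genes the median was -0.32, and 7 lay below 0. Summed levels were 75.9 to 80.8 CPM in GalNAc-siNC and 47.1 to 48.3 CPM in GalNAc-siRnf10 livers, most of it Spp1.

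Markers of other leukocytes had low counts. Of 8 neutrophil markers 2 were tested, and S100a9 was called lower at 22.6, 46.4 and 45.5 normalized counts in GalNAc-siNC mice, and 15.8, 11.5 and 14.9 in GalNAc-siRnf10 mice. This difference of -1.43 on the log2 scale (edgeR, Benjamini-Hochberg adjusted p = 0.0171) was called without GalNAc-siNC mouse 1 and not without any 1 of the other 5 mice. The 6 untested neutrophil markers had at most 22 counts in a mouse. No dendritic cell marker (4 of 7 tested, Zbtb46 the most abundant at -0.17), B cell marker (5 of 6 tested, Ighm the most abundant at -0.38) or T and natural killer cell marker (1 of 8 tested, Cd4 at -0.24) was called by edgeR. At an unadjusted p under 0.05, edgeR gave 1 higher B cell marker, the immunoglobulin chain Igkc at 1.00, and no other gene of these 3 lists, and Igkc was called higher without GalNAc-siNC mouse 1. The 7 untested T and natural killer cell markers had at most 10 counts in a mouse.

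Some markers of other liver cells were also called. Of 8 sinusoidal endothelial markers 2 were called higher, the lectin Clec4g at 0.52 and the hyaluronan receptor Lyve1 at 0.55 (edgeR, Benjamini-Hochberg adjusted p = 0.00426 and 0.0414), and the Lyve1 call was lost under 8 of the 15 alternatives, leaving out GalNAc-siNC mouse 1 among them. Of the 8, 7 lay above 0 and 1 below, with a median of 0.26. At an unadjusted p under 0.05, edgeR gave 5 higher and 1 lower. The scavenger receptor Stab2 of the same list was lower in every GalNAc-siRnf10 mouse, at 711 ± 12.7 and 594 ± 17.9 normalized counts (SD, n = 3 per group) and -0.26 on the log2 scale (edgeR, Benjamini-Hochberg adjusted p = 0.0544), and was called lower under 4 alternatives. Without GalNAc-siNC mouse 1 the list had 3 higher (Clec4g, Fcgr2b and Dnase1l3) and 1 lower (Stab2). Of 6 stellate cell markers 3 were called higher, the proteoglycan Dcn at 0.36, the collectin Colec11 at 0.37 and reelin (Reln) at 0.35 (edgeR, Benjamini-Hochberg adjusted p = 0.00201, 0.0422 and 0.0158). The Colec11 call was lost under 6 of the 15 alternatives and the Reln call under 2. The other 3 stellate markers had negative values that were not called, Lrat at -0.27, Pdgfrb at -0.25 and Des at -0.20, and the median of the 6 was 0.080. Of 6 hepatocyte markers 3 were called higher, albumin (Alb) at 0.64, transthyretin (Ttr) at 0.66 and the urea cycle enzyme Cps1 at 0.58 (edgeR, Benjamini-Hochberg adjusted p = 1.40e-07, 0.0138 and 6.52e-07). The other 3 had smaller values that were not called, Asgr1 at 0.11, Apoa1 at 0.08 and Hnf4a at 0.08. Both corrections for GC content and gene length gave 4 higher in this list, and leaving out GalNAc-siNC mouse 2 gave 2. None of 4 bile duct markers was called by edgeR, with 1 lower at an unadjusted p under 0.05 and the most abundant, Sox9, at -0.54 (Benjamini-Hochberg adjusted p = 0.0555), and limma voom called 1 lower. Sox9 was called lower under 6 alternatives, leaving out GalNAc-siNC mouse 1 among them. Summed levels of GalNAc-siNC and GalNAc-siRnf10 livers were 93.4 to 97.1 and 105 to 109 CPM for endothelial markers, and 86.0 to 91.0 and 106 to 110.5 CPM for stellate markers. For hepatocyte markers they were 50948 to 54298 and 76918 to 79588 CPM, and most of that rise was Alb. The part of these differences in the macrophage marker values was not tested.

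**Figure D4:**
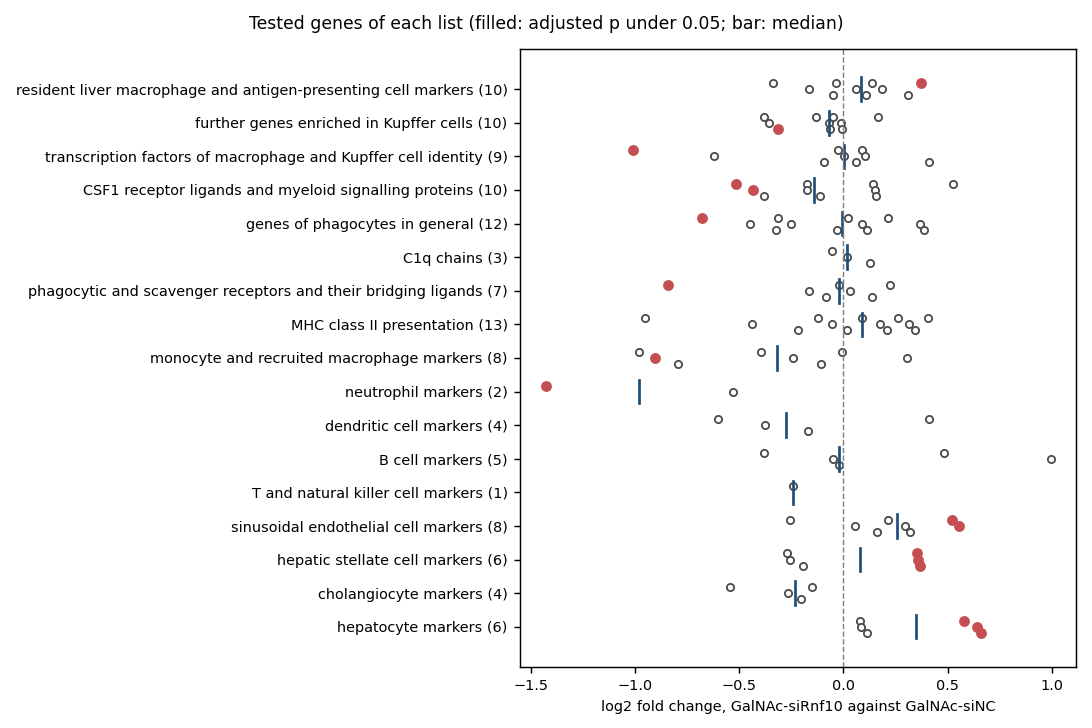
Log2 fold change of GalNAc-siRnf10 against GalNAc-siNC (x axis) for the tested genes of each list, with the number tested in parentheses. Circles are genes, filled where the adjusted p was under 0.05, and bars are medians. The 10 markers lie around 0.085 with Cd163 filled, while Id3 (-1.01) stands at the lower end of the transcription factor list.

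**Figure D5:**
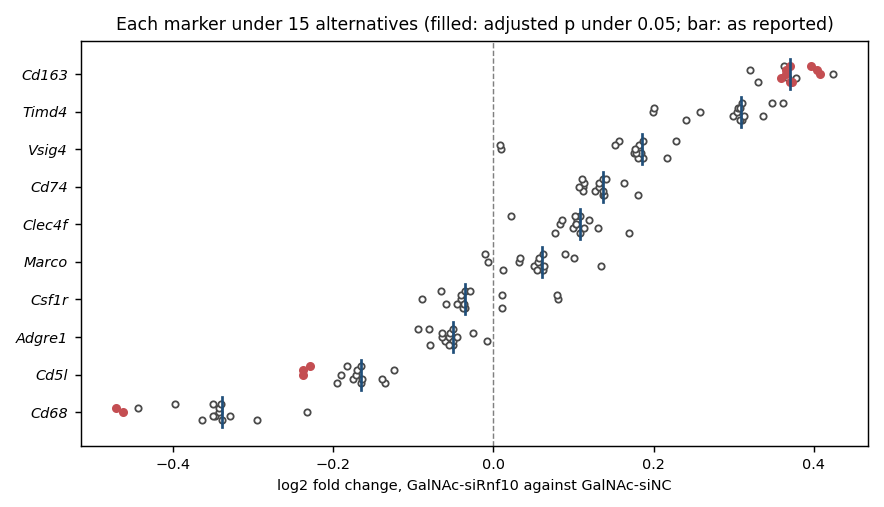
Log2 fold change of GalNAc-siRnf10 against GalNAc-siNC (x axis) for each of the 10 markers under the 15 alternatives to the processing, filled where the adjusted p was under 0.05. The bar is the reported value. Cd163 lies between 0.32 and 0.42, Vsig4 drops to 0.010 and 0.0085 under the corrections for GC content and gene length, and Csf1r and Marco have values on both sides of 0.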

How the data were processed

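Liver RNA-seq of 6 mice was used, grouped by sample titles. The authors made stranded mRNA libraries, mapped the reads to GRCm38 (mm10) with HISAT2, and deposited unnormalized counts for each gene. The submitters' processing notes also name DESeq2. The counting tool, annotation release and strand setting are not given in the sources used here. Counts were tested with edgeR 4.0.16 in R 4.3.3 (filterByExpr, TMM, robust quasi-likelihood F-test, treatment as the only term, Benjamini-Hochberg adjustment over 14046 genes, threshold 0.05) and, for single genes, by exact two-sided permutation of mean log2 values. Symbols and gene models came from GENCODE M21, and 346 of 55487 identifiers had no symbol.

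The markers and the other lists were chosen with earlier results of these data known, and 1 gene of those lists is not reported here. Named were the 10 markers, Rnf10, the called genes of each other list (at most 4, or its most abundant where none was called), the C1q chains and the 5 genes most like the mean marker profile. Hmgxb3, Spi1, Ptpn6, Mrc1, Ly6c2, Ccr2, Cx3cr1, Igkc, Stab2, Fcgr2b, Dnase1l3, Lrat, Pdgfrb and Des were named after their values were seen. The same holds for Nr1h3, Il34, Il18bp, Fcna, Pros1, Ciita, Asgr1, Apoa1 and Hnf4a. Alternatives were RLE and upper-quartile scaling, no count filter, a minimum of 10 counts in each mouse, DESeq2 1.42.0, voom (limma 3.58.1) with quality weights, a block for the replicate number, GC and length correction (splines, 5 degrees of freedom) with and without that block, and leaving out each mouse.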

Additional observations from a re-analysis of the deposited data

How the results depend on the processing

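The 15 alternatives left the direction of 8 of the 10 markers as reported and turned Csf1r and Marco, whose reported values lie near 0. Correction for GC content and gene length put Csf1r at 0.080 and, with the replicate block, at 0.079. Leaving out 1 mouse at a time put Csf1r between -0.090 and 0.011 and Marco between -0.010 and 0.13. The number of markers called higher was 1, and 0 with the replicate block, and 0 to 1 with 1 mouse left out. The number called lower was 0, and 2 (Cd5l and Cd68) under the GC and length correction with and without the replicate block, and 0 to 1 with 1 mouse left out, where the 1 was Cd5l without GalNAc-siNC mouse 1. The median log2 fold change of the markers lay between 0.0057 (without GalNAc-siNC mouse 1) and 0.12 when 1 mouse was left out. The number of genes called went from 1965 to between 1053 and 2864, lowest without GalNAc-siRnf10 mouse 1 and highest without GalNAc-siNC mouse 1, and was 1128 without GalNAc-siRnf10 mouse 2 or mouse 3. The cause of these differences was not tested.

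The labels number the mice 1 to 3 within each group. Same-numbered mice did not deviate together, with correlations of -0.0044, 0.018 and -0.032 between their deviations from the group means. A pairing with little effect on expression would look the same, so whether the numbers pair the mice cannot be told from these values. With the replicate block edgeR called 1816 genes instead of 1965 (Benjamini-Hochberg), and the Cd163 call was lost at an adjusted p of 0.0608. With 3 mice per group, precision was lowest for the markers with few counts: the SE of the log2 fold change was 0.166 for Timd4, 0.152 for Marco and 0.151 for Cd68, and 0.0755 for Cd5l and 0.0784 for Clec4f.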
